A study of Mus musculus with 15 samples.

Results

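Mouse bone marrow derived macrophages given heme-albumin at 200 µM were compared directly with macrophages polarized with IFNγ at 10 ng/ml (called M1 in the labels). Each group has 3 libraries, chosen by the treatment named in the column headers of the count table, so 6 of the 15 libraries of the series enter the comparison, and 11883 of 25700 genes passed the filter on low counts. All cells came from the femurs and tibias of mice aged 8 to 10 weeks, of a strain and genotype that the labels leave out, and had been differentiated for 7 days with M-CSF at 10 ng/ml. Untreated cells of the same kind (3 libraries) give the starting level, cells given heme-albumin at 400 µM (3 libraries) give a second dose, and cells given IL-4 at 10 ng/ml (3 libraries) enter only the estimate of the spread.

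Heme-albumin is hemin, the chloride of heme, bound to human serum albumin, and the labels use it to make cells like macrophages that have eaten red blood cells. No label gives albumin to the IFNγ or untreated cells, so heme and its carrier cannot be told apart, and no label says how long the cells were treated. Whether libraries of a group stem from different mice or cultures is not said, so the p-values rest on the spread among libraries alone, which may be technical. In bulk RNA, fewer cells of a type and less RNA per cell cannot be told apart.

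IFNγ binds its receptor on macrophages, activates the kinases JAK1 and JAK2, and through the transcription factor IRF1 and the coactivator CIITA, among others, switches on genes for antigen presentation and for killing microbes inside the cell. Heme taken up by a macrophage is broken down by heme oxygenase 1 into iron, carbon monoxide and biliverdin. It also displaces the repressor BACH1 from DNA and, with the oxidative stress it brings, lets NRF2 drive genes for glutathione, quinone detoxification and iron export. Both stimuli thus act on well-studied sets of macrophage genes, and the direct comparison shows on which genes the treated cells differ.

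IFNγ replicate 3 stood apart from the other 2 IFNγ libraries, when libraries were compared by the chi-square of their counts over genes, divided by its degrees of freedom. Its value was 135 to replicate 1 and 130 to replicate 2, against 44.7 between replicates 1 and 2. Among the heme-albumin libraries, replicate 2 gave 36 to replicate 1 and 22.7 to replicate 3, against 8.52 between replicates 1 and 3. Total counts were 14329361, 12705027 and 9819362 with heme-albumin and 16706436, 22494832 and 16398891 with IFNγ. The 10 genes with the most counts took 16.7 to 19% of a heme-albumin library and 8.30 to 12.3% of an IFNγ library.

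Hmox1, the gene of heme oxygenase 1 (ENSMUSG00000005413, chromosome 8, 75093621 to 75100589; all coordinates are GRCm38), had 25566, 28875 and 24867 CPM with heme-albumin, against 1066, 729.6 and 1486 CPM with IFNγ. Untreated cells had 934, 622 and 1045 CPM, so the IFNγ and untreated libraries overlapped while every heme-albumin library lay above both. The log2 fold change of heme-albumin over IFNγ, with its SE, was 4.60 ± 0.29, adjusted p = 3.77e-08 (n = 3 libraries per group), and every difference below is this log2 fold change unless another comparison is named. A second value given for a difference is the one without the named library, where leaving it out moved the fold by over 1.5 times. Mean levels are given below as CPM ± SD, where CPM are counts divided by the TMM-scaled library total and adjusted p is the Benjamini-Hochberg value of edgeR's quasi-likelihood test over all tested genes. Cd74, the invariant chain that escorts MHC class II molecules, had 71.6, 108 and 51.9 CPM with heme-albumin, against 6380.0, 8155 and 12542 CPM with IFNγ. Its untreated libraries had 83.4, 74.9 and 54.1 CPM, which overlapped those with heme-albumin, and the difference between the treatments was -6.87 ± 0.37, adjusted p = 7.93e-09. Gbp4, a guanylate-binding protein that acts on vacuoles holding microbes (ENSMUSG00000079363, chromosome 5, 105115767 to 105139586), had 0.143, 0 and 0 CPM with heme-albumin, against 1492, 1343 and 1338 CPM with IFNγ. With heme-albumin it had 2 counts in all, and IFNγ over heme-albumin had a ratio of 24465 (95% counting interval 6772 to 202019), an interval that covers counting error only. In all 3 genes the libraries of the treatments did not overlap, as in 5821 of all tested genes (49.0%).

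**Figure D1:**
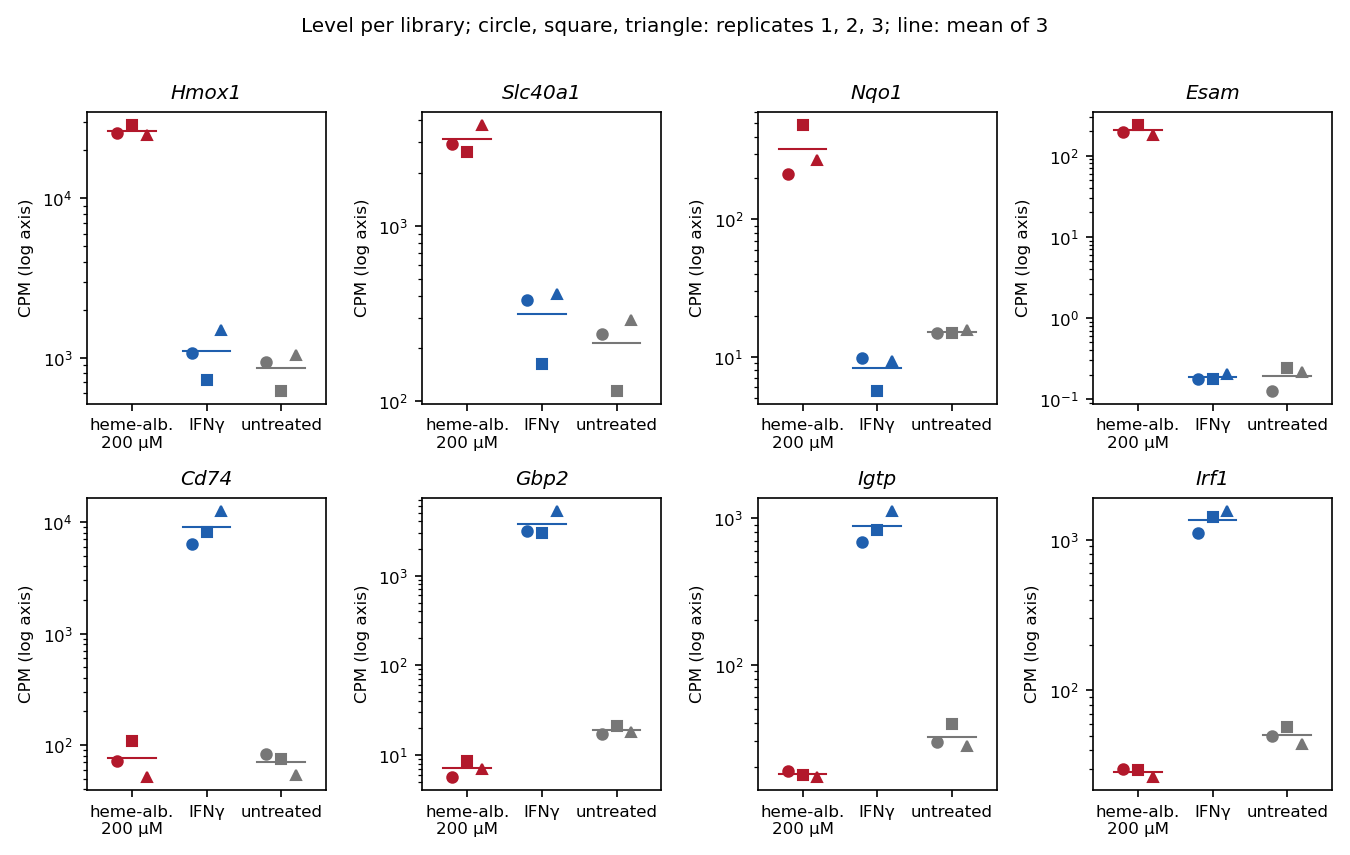
Level of 8 genes in each library in CPM on log axes, for heme-albumin 200 µM (red), IFNγ (blue) and untreated cells (grey); points are replicates 1 to 3 and lines are means of 3. Hmox1, Slc40a1, Nqo1 and Esam are higher in every heme-albumin library than in any IFNγ library, while Cd74, Gbp2, Igtp and Irf1 are lower in every one.

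Across the transcriptome, 2421 genes (20.4% of those tested) were higher and 2577 (21.7%) lower with heme-albumin than with IFNγ at an adjusted p under 0.05. Of these, 995 were higher (8.37%) and 1037 lower (8.73%) by at least 2-fold. The shares of 20.4% and 21.7% are the background for every count of list members given below. The split between higher and lower depended on the scaling: with upper-quartile factors, which move the median of all genes from 0.01 to 0.11 on the log2 scale, 3072 were higher and 2083 lower. In a fit of the 6 libraries alone 1573 were higher and 1911 lower, and with the dates as a replicate block in that fit 1318 and 1586. Of the called genes, 2406 of those higher and 2518 of those lower differed in the same direction in all 3 pairs of libraries that share a date. Of the 2421 higher genes, 894 rose with heme-albumin against the untreated cells and 1314 fell with IFNγ. Of the 2577 lower genes, 575 fell with heme-albumin and 1827 rose with IFNγ. The 2 comparisons with untreated cells share the same 3 control libraries, and called 1658 genes as risen with heme-albumin (14.0%) and 1127 as fallen (9.48%), against 2866 risen (24.1%) and 2323 fallen (19.5%) with IFNγ.

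**Figure D2:**
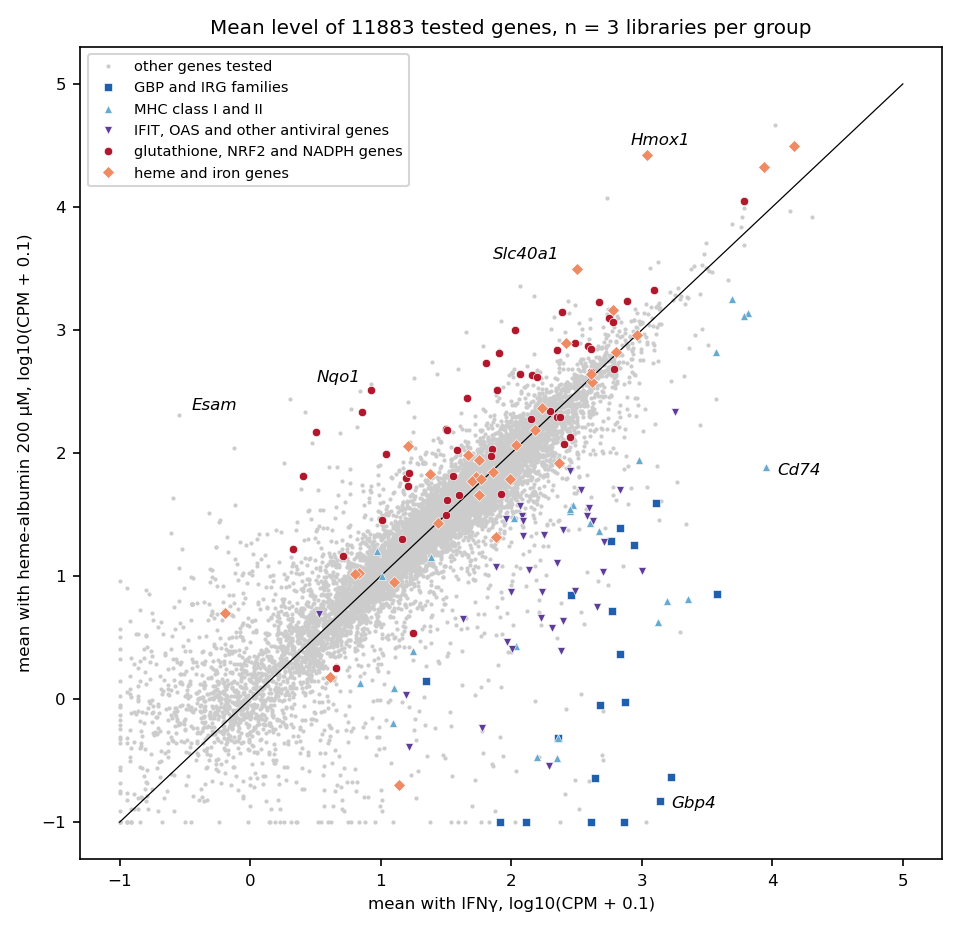
Mean level of each tested gene with heme-albumin 200 µM (vertical) against IFNγ (horizontal), both as log10(CPM + 0.1), n = 3 libraries per group; the line marks equal levels and colours mark gene lists. Genes of the GBP and IRG families, MHC molecules and antiviral genes lie below the line with few exceptions, down to 0 CPM with heme-albumin, and most genes of glutathione, NRF2 and NADPH lie above it.

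The 12 genes with the largest fitted rises among those with at least 10 CPM in the higher group were led by Esam, an adhesion molecule of endothelial and platelet junctions (ENSMUSG00000001946, chromosome 9, 37528078 to 37538319). Esam had 197, 238 and 180.3 CPM with heme-albumin, against 0.176, 0.178 and 0.207 CPM with IFNγ, beside 0.128, 0.242 and 0.215 CPM in untreated cells, a difference of 10.05 ± 0.20, adjusted p = 1.36e-12. Rnf183, a membrane-bound ubiquitin ligase of the endoplasmic reticulum (ENSMUSG00000063851, chromosome 4, 62427540 to 62435252), had 38.2, 60.4 and 31.5 CPM with heme-albumin, against 0.293, 0.178 and 0 CPM with IFNγ, and Eef1a2, a translation elongation factor usually found in muscle and neurons, had 162, 72.8 and 94.3 CPM with heme-albumin, against 0.645, 0.356 and 0.964 CPM with IFNγ. Both were near 0 without heme, with 0.64, 0.484 and 0.43 CPM of Rnf183 and 1.86, 0.908 and 0.967 CPM of Eef1a2 in untreated cells. F13a1, the A chain of coagulation factor XIII, stood differently: it had 323, 108 and 392 CPM with heme-albumin, against 4.4, 1.11 and 0.207 CPM with IFNγ, but already 88.5, 30.2 and 62.9 CPM in untreated cells. Its difference of 7.16 ± 1.01, adjusted p = 7.89e-05 (8.53 without IFNγ replicate 1) went with a fall under IFNγ against untreated cells (-4.98 ± 0.95), while its difference with heme-albumin was 2.18 ± 0.77 (adjusted p = 0.0558).

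Fosl1, the AP-1 subunit FRA-1, differed by 6.48 ± 0.40, with 32.6 ± 3.22 CPM with heme-albumin and 0.381 ± 0.216 CPM with IFNγ. The transporter Slc22a23 differed by 7.33 ± 0.61 (8.57 without IFNγ replicate 3) and the serpin Serpinb9b by 6.34 ± 0.70 (5.44 without heme-albumin replicate 2). The glycosyltransferase Galnt9 differed by 6.02 ± 0.54 (6.71 without IFNγ replicate 3), the histidine-degrading enzyme Hal by 5.93 ± 0.58 (6.92 without IFNγ replicate 3) and Ptprn, a protein of dense-core vesicles, by 5.86 ± 0.52. The growth factor receptor Fgfr1 differed by 5.86 ± 0.51 and the microsomal glutathione transferase Mgst2 by 5.60 ± 0.28. In these 12 genes every heme-albumin library lay above every IFNγ library, which the choice of the genes required. Uchl1, a deubiquitinating enzyme best known from neurons, was among the 5 genes of smallest p, with 205, 282 and 193 CPM with heme-albumin, against 5.39, 5.21 and 6.75 CPM with IFNγ. It differed by 5.30 ± 0.17, adjusted p = 1.03e-10, and against the untreated level of 24.2 ± 1.19 CPM it rose with heme-albumin (3.23 ± 0.15) and fell with IFNγ (-2.07 ± 0.15).

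The 12 largest falls were in genes with at most a few counts in the heme-albumin libraries, and all but Gbp4 and Iigp1 had no count in any heme-albumin library, so that only a lower bound of the fold can be given (3 counts over the group, covering counting error only). Serpina3g, a serpin that inhibits cathepsins (ENSMUSG00000041481, chromosome 12, 104236245 to 104241939), had 0 CPM in all 3 heme-albumin libraries, against 951, 902 and 1402 CPM with IFNγ, and was at least 12351-fold lower with heme-albumin. Its neighbour Serpina3f was at least 4855-fold lower. Cxcl9, a chemokine that attracts activated T cells, had 0 CPM in all 3 heme-albumin libraries, against 93.5, 55.4 and 558 CPM with IFNγ and was at least 2377-fold lower. The IFNγ libraries of Cxcl9 were themselves wide apart, and the bound was 844-fold without replicate 3 and 3605-fold without replicate 2. Gbp2b, a guanylate-binding protein, was at least 9098-fold lower, the GTPase Tgtp1 at least 4672-fold and Gbp10 at least 1529-fold.

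Dnase1l3, a secreted nuclease that digests chromatin, was at least 1295-fold lower with heme-albumin, Klrk1, the activating receptor NKG2D, at least 692-fold, and Tlr12, which senses protozoan profilin, at least 516-fold. Iigp1, an immunity-related GTPase, had 0, 0.0845 and 0.318 CPM with heme-albumin, against 1711, 1456 and 1834 CPM with IFNγ, a difference of -13.73 ± 0.47 (-15.12 without heme-albumin replicate 3 and -13.04 without heme-albumin replicate 1). Ubd, the ubiquitin-like modifier FAT10, had 0 CPM in all 3 heme-albumin libraries, against 6.92, 2.71 and 192 CPM with IFNγ. It was at least 645-fold lower, a bound of 53.2-fold without IFNγ replicate 3, which held most of its counts, and 1082-fold without replicate 2. Its call (adjusted p = 0.0407) was lost under several alternatives (adjusted p = 0.065 in the 6 libraries alone, 0.0851 without heme-albumin replicate 1, 0.0793 without heme-albumin replicate 2, 0.0787 without heme-albumin replicate 3; range over all alternatives 0.000296 to 0.0851). Serpina3f and Serpina3g, Gbp2b, Tgtp1 and other members of these families have near-identical copies, so their counts are uncertain.

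The guanylate-binding proteins (GBPs) and immunity-related GTPases (IRGs) are large GTPases that coat and break open the vacuoles of intracellular microbes. Of the GBPs 0 were higher and 11 lower with heme-albumin of 11 tested, with a median log2 fold change of -9.77, beside 20.4% higher, 21.7% lower and a median of 0.01 over all genes tested. Gbp2 had 5.72, 8.62 and 7 CPM with heme-albumin, against 3125, 2988 and 5221 CPM with IFNγ, a difference of -9.05 ± 0.33, adjusted p = 2.44e-10. Gbp3 differed by -8.25 ± 0.27, Gbp8 by -9.24 ± 0.30 and Gbp7 by -6.87 ± 0.24. Counted from the other side, against the untreated cells, 0 rose and 6 fell with heme-albumin (median -1.56), while 11 rose and 0 fell with IFNγ (median 7.97). Gbp2 was at 18.9 ± 2.08 CPM in untreated cells, and heme-albumin changed it by -1.41 ± 0.25 (adjusted p = 0.00142).

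Of the IRGs 0 were higher and 8 lower with heme-albumin of 8 tested (median -5.32). Igtp had 18.7, 17.7 and 17.2 CPM with heme-albumin, against 689, 826 and 1115 CPM with IFNγ, a difference of -5.61 ± 0.23. The regulatory members Irgm1 and Irgm2, which keep the effector GTPases off host membranes, differed by -5.02 ± 0.21 and -4.92 ± 0.23. As for the GBPs, against the untreated cells, 0 rose and 6 fell with heme-albumin (median -1.36), while 8 rose and 0 fell with IFNγ (median 4.19). Irgm1 was at 105 ± 21.1 CPM in untreated cells and changed by -1.41 ± 0.19 with heme-albumin.

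Of the genes of IFNγ signalling and its transcription factors, 0 were higher and 22 lower with heme-albumin of 24 tested (median -2.21 (-1.90 with members near 0 counts at their bounds)), with 1 higher without IFNγ replicate 3. Irf1, an early target of the pathway and itself an activator, had 30.1, 29.3 and 26.6 CPM with heme-albumin, against 1114, 1416 and 1545 CPM with IFNγ (-5.56 ± 0.16, adjusted p = 4.19e-11). Ciita, the master switch of MHC class II genes, had 0.716, 0.423 and 0 CPM with heme-albumin, against 216, 237 and 229.7 CPM with IFNγ (-9.05 ± 0.37, or -9.88 without heme-albumin replicate 1). Socs1, which shuts the receptor kinases off, differed by -6.95 ± 0.50, Batf2, an AP-1 family partner of IRF1, by -6.22 ± 0.26, Stat2 by -3.42 ± 0.14 and Nlrc5, the activator of MHC class I genes, by -3.07 ± 0.13. The receptor chain Ifngr1 showed no difference that passed the test: it had 166, 131 and 186 CPM with heme-albumin, against 151, 181 and 206 CPM with IFNγ (-0.16 ± 0.17, adjusted p = 0.486). Irf1 was not at its untreated level with heme-albumin: it was at 50.2 ± 6.49 CPM in untreated cells and changed by -0.81 ± 0.13 (adjusted p = 0.000718). For the whole list, against the untreated cells, 4 rose and 6 fell with heme-albumin (median -0.12), while 22 rose and 0 fell with IFNγ (median 1.84).

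The promoters of called genes were searched for the letters of 2 interferon elements, on both strands, in the window from 250 bases before to 50 after each gene's start (RefSeq, GRCm38.p6). GAAA, followed after any 2 bases by GAAA again, is the core of the interferon-stimulated response element (ISRE), which IRF factors bind. It was found in 60 of 254 promoters of genes lower by at least 8-fold (23.6%) and in 110 of 1018 of those lower by at least 2-fold (10.8%). It was found in 24 of 947 promoters of genes higher by at least 2-fold (2.53%) and in 3.44% of all 32851 promoters in the table (3.39% of those of genes tested). TTCNNNGAA, the gamma-activated site (GAS) of IFNγ signalling, was found in 11% of promoters of genes lower by at least 8-fold, 8.55% of those lower by at least 2-fold, 5.28% of those higher by at least 2-fold, 6.87% of those of all genes tested and 8.30% of all promoters. By list, all 5 GBPs with a promoter in the table held the ISRE letters, as did 5 of 6 IRGs, 8 of 10 Ifi200 genes and 16 of 27 antiviral genes, but 0 of 16 glutathione genes and 1 of 10 MHC class II genes. A match of letters is a description and not a binding site.

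Promoters of 3 genes lower with heme-albumin are shown to let the spacing of the matches be seen, with the matched letters in capitals. Gbp2 (chr3:142620413-142620712, plus strand) holds 1 ISRE match that begins 59 bases before the start. Gbp5 (chr3:142496684-142496983, plus strand), named here after its values were seen, holds an ISRE match 165 bases before the start and GAS matches 245 and 52 bases before it. Irf1 (chr11:53769764-53770063, plus strand) holds 1 GAS match, 90 bases before the start.
Gbp2: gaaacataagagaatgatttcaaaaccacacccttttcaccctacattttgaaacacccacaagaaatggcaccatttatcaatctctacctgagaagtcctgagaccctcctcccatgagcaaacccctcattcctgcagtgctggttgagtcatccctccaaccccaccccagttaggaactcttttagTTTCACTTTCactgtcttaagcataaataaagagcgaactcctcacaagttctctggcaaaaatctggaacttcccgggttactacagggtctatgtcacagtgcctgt
Gbp5: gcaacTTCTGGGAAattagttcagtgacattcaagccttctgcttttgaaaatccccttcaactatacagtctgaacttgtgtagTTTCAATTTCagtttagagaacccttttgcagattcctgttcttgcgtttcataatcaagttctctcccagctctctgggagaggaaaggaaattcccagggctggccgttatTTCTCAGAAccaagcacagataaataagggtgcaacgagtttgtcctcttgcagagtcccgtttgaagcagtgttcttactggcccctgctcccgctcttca
Irf1: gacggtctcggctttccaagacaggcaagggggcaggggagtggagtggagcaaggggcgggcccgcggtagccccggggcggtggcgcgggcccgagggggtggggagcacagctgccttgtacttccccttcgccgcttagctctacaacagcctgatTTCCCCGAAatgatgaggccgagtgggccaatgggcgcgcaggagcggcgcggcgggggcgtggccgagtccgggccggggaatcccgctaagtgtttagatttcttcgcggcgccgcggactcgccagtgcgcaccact
Gbp5 had 1.07, 0.507 and 0.955 CPM with heme-albumin, against 599, 574 and 1068 CPM with IFNγ, a difference of -9.77 ± 0.36, adjusted p = 2.90e-10. Of the 3 genes with these promoters, each was lower in every heme-albumin library than in any IFNγ library, and each fell with heme-albumin against untreated cells too (-1.41 ± 0.25 for Gbp2, -2.08 ± 0.38 for Gbp5 and -0.81 ± 0.13 for Irf1). Groups did not overlap in 49.0% of all tested genes. Only lower genes whose promoter holds a match were shown, so match and direction go together by choice.

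MHC class II molecules present peptides to CD4+ T cells. Of the class II genes and their regulators, 1 was higher and 12 lower with heme-albumin of 14 tested (median -3.68). H2-Aa, an alpha chain, had 8.66, 6.59 and 4.14 CPM with heme-albumin, against 1622, 1835 and 3379 CPM with IFNγ (-8.44 ± 0.45, adjusted p = 7.93e-09), and H2-Eb1, a beta chain, differed by -8.32 ± 0.44. The peptide editors H2-DMa and H2-DMb1 differed by -3.89 ± 0.21 and -2.97 ± 0.13. The member that was higher was Rfxap, a subunit of the constitutive factor that binds these promoters, by 0.76 ± 0.15. Here against the untreated cells, 2 rose and 2 fell with heme-albumin (median 0.17), while 12 rose and 1 fell with IFNγ (median 4.57). H2-DMa was above its untreated level of 13.8 ± 2.55 CPM with heme-albumin, by 0.98 ± 0.20 (adjusted p = 0.00301).

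Of the MHC class I genes 0 were higher and 12 lower with heme-albumin of 12 tested (median -3.04). The classical heavy chain H2-K1 had 630.2, 695 and 648 CPM with heme-albumin, against 2518, 3555 and 4960.4 CPM with IFNγ (-2.48 ± 0.20), and H2-D1, another classical chain, had the smallest difference of the list (-1.46 ± 0.25). The nonclassical H2-Q4 differed by -4.35 ± 0.25, H2-T24 by -5.40 ± 0.26 and H2-Q6 and H2-Q7, near-identical copies whose reads may be split, by -9.74 ± 0.44 and -9.23 ± 0.47. In this list against the untreated cells, 0 rose and 8 fell with heme-albumin (median -0.73), while 12 rose and 0 fell with IFNγ (median 2.16). H2-T24 had 23.5, 36.6 and 21.4 CPM in untreated cells and changed by -3.41 ± 0.25 with heme-albumin (adjusted p = 1.63e-06).

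Proteasome genes divided by type. The immunoproteasome replaces 3 catalytic subunits of the proteasome with ones that cut peptides suited to MHC class I. Of the immunoproteasome and peptide loading genes 0 were higher and 10 lower with heme-albumin of 13 tested (median -2.07), while of the constitutive proteasome subunits 23 were higher and 0 lower with heme-albumin of 33 tested (median 0.44). Psmb8, an inducible catalytic subunit, had 101, 104 and 92.3 CPM with heme-albumin, against 448, 510.4 and 549 CPM with IFNγ (-2.34 ± 0.13, adjusted p = 1.05e-08). Psmb5, the subunit it replaces and named here for that reason, had 143, 140.3 and 137 CPM with heme-albumin, against 75.2, 75.3 and 93.6 CPM with IFNγ (0.78 ± 0.13, adjusted p = 0.000383). The groups did not overlap for either gene and the differences ran in opposite directions.

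Psmb9 and Psmb10, the other inducible subunits, differed by -3.04 ± 0.18 and -2.68 ± 0.21. Of the subunits they replace, named here for that reason, Psmb7 differed by 0.44 ± 0.10, a call lost in the 6 libraries alone (adjusted p = 0.058 in the 6 libraries alone, 0.0833 in the 6 libraries alone with the dates as a block; range over all alternatives 0.000335 to 0.0833), and Psmb6 showed no difference that passed the test (0.02 ± 0.11, adjusted p = 0.884). The activator subunits Psme1 and Psme2 differed by -2.01 ± 0.11 and -2.0 ± 0.09, the peptide pump Tap1 by -3.93 ± 0.19 and the peptide editor Tapbpl by -3.44 ± 0.18. Among constitutive subunits, Psmd11 had 173, 183 and 176 CPM with heme-albumin, against 108, 91.1 and 88.1 CPM with IFNγ (0.89 ± 0.11, adjusted p = 2.42e-05), Psmd1 differed by 0.87 ± 0.11 and Psmd14 by 0.80 ± 0.12. For the constitutive subunits against the untreated cells, 29 rose and 1 fell with heme-albumin (median 0.46), while 11 rose and 2 fell with IFNγ (median 0.14); for the immunoproteasome list against the untreated cells, 1 rose and 5 fell with heme-albumin (median -0.19), while 10 rose and 1 fell with IFNγ (median 1.96). The count of 23 constitutive subunits was 14 in the fit of the 6 libraries alone with the dates as a block, and 1 subunit was lower without heme-albumin replicate 1 or IFNγ replicate 3. By DESeq2, with its size factors in edgeR, with the filter of 5 CPM and with the dates as a block over all libraries, 1 was lower too. In the immunoproteasome list 1 gene was higher without IFNγ replicate 1.

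Antiviral genes that respond to both type I and type II interferon differed in both arms. Of the IFIT, OAS and other antiviral genes 0 were higher and 35 lower with heme-albumin of 36 tested (median -3.86), and against the untreated cells, 0 rose and 34 fell with heme-albumin (median -2.10), while 34 rose and 0 fell with IFNγ (median 1.95). Ifit2, which binds viral RNA, had 12, 8.62 and 12.2 CPM with heme-albumin, against 744, 874 and 1401 CPM with IFNγ (-6.52 ± 0.34, adjusted p = 6.92e-09), and 41.8, 85.9 and 42.7 CPM in untreated cells. Every heme-albumin library lay below, and every IFNγ library above, the untreated ones. Ifit1 differed by -5.79 ± 0.38, Ifit3 by -6.67 ± 0.39, Ifi44 by -9.87 ± 0.40, the Z-nucleic acid sensor Zbp1 by -6.36 ± 0.29 and the RNA helicase Dhx58 by -3.04 ± 0.11. Ifit3 has a near-identical copy and is uncertain.

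Of the Ifi200 family, nuclear DNA-binding proteins, 0 were higher and 11 lower with heme-albumin of 11 tested (median -4.40), and against the untreated cells, 0 rose and 8 fell with heme-albumin (median -1.88), while 11 rose and 0 fell with IFNγ (median 2.82). Ifi204 had 24.3, 24.8 and 24.8 CPM with heme-albumin, against 449, 497 and 609.8 CPM with IFNγ (-4.40 ± 0.23), beside 62.6, 95.6 and 61.8 CPM in untreated cells. Ifi206 differed by -9.26 ± 0.52 (-10.06 without heme-albumin replicate 1) and Ifi211 by -5.03 ± 0.22, while Aim2, the sensor that builds an inflammasome on DNA, had the smallest difference of the list, -1.08 ± 0.15. Aim2 averaged 39 ± 2.88 CPM with heme-albumin and 82.5 ± 7.27 CPM with IFNγ, beside 39.3 ± 1.67 CPM in untreated cells.

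**Figure D3:**
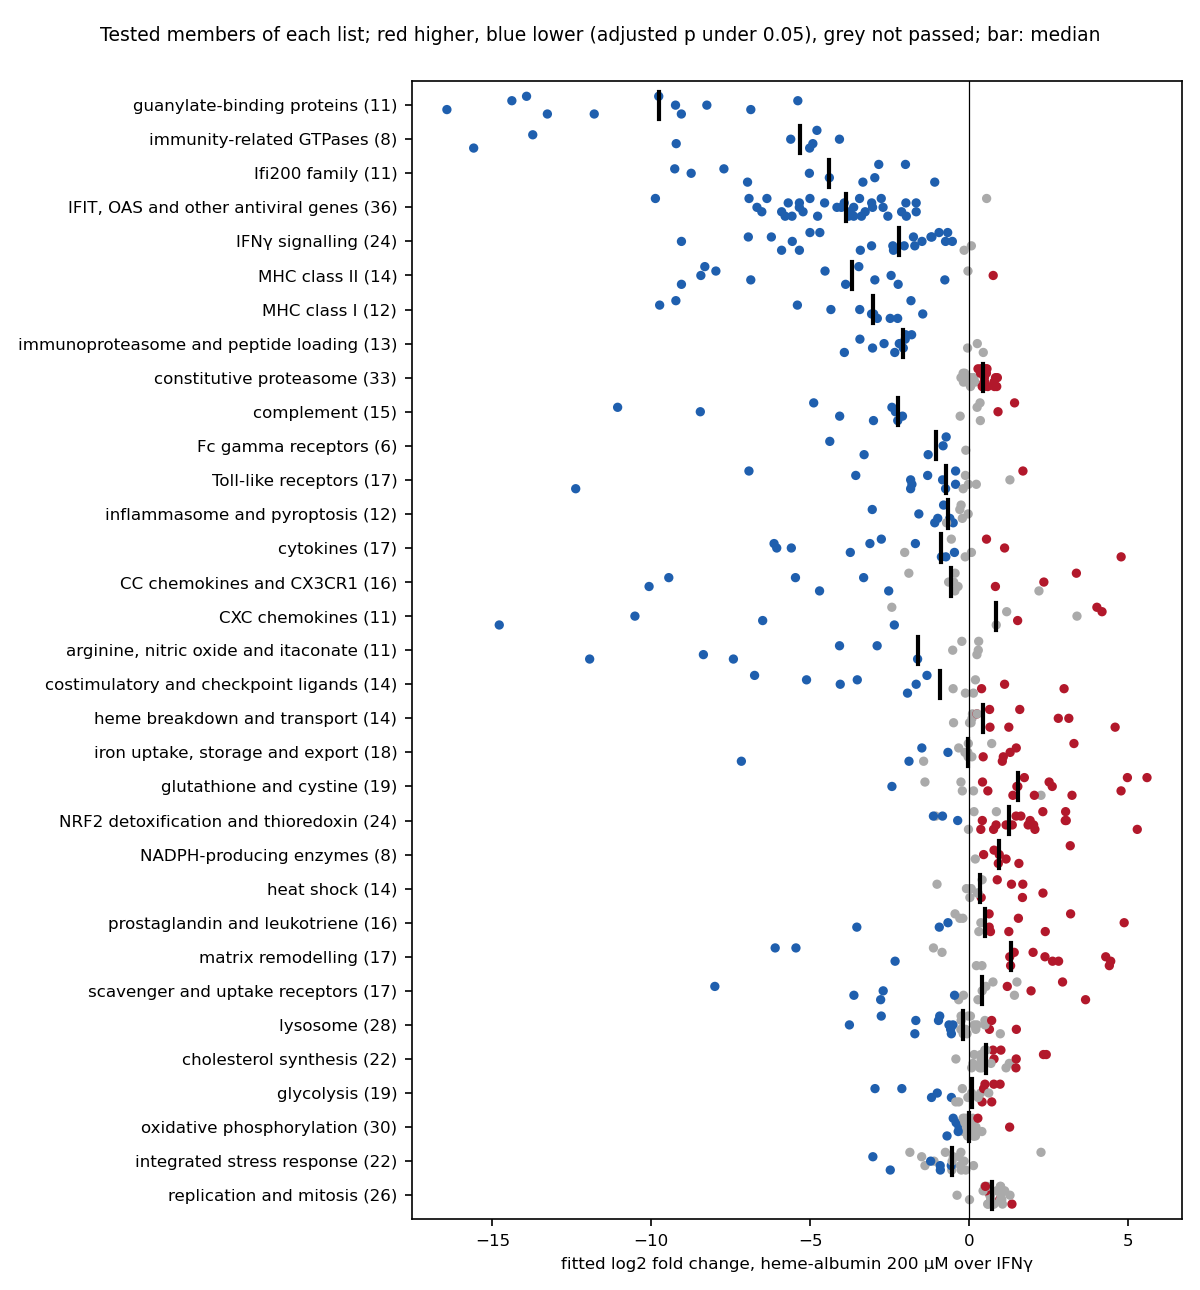
Fitted log2 fold change of heme-albumin 200 µM over IFNγ for each tested member of 33 gene lists, with the number tested in parentheses; red points were higher and blue points lower at an adjusted p under 0.05, grey points did not pass, and black bars are list medians. All 11 GBPs and all 8 IRGs are blue, 17 of 24 NRF2 detoxification genes are red, and chemokines hold points of both colours; values of genes with no counts in 1 group depend on the fit and are no bounds.

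Secreted signals did not move as 1 group. Of the CXC chemokines 3 were higher and 4 lower with heme-albumin of 11 tested, and of the CC chemokines and their receptors 3 were higher and 6 lower with heme-albumin of 16 tested. Of all genes tested, 20.4% were higher and 21.7% lower, so a list with calls in both directions is not particular to chemokines. Cxcl10, which like Cxcl9 attracts T cells, had 5.22, 2.28 and 4.46 CPM with heme-albumin, against 346, 245 and 495 CPM with IFNγ (-6.50 ± 0.43), and Cxcl16 differed by -2.35 ± 0.47 (-1.27 without IFNγ replicate 3). Pf4, a chemokine of platelets and macrophages, ran the other way, with 424, 421 and 476 CPM with heme-albumin, against 33.5, 34.6 and 12.9 CPM with IFNγ (4.02 ± 0.36, adjusted p = 1.25e-06) and 244, 129 and 216 CPM in untreated cells. Ccl9 was higher by 2.35 ± 0.35 and averaged 1585 ± 323 CPM with heme-albumin and 310.3 ± 162 CPM with IFNγ, beside 1523 ± 78.3 CPM in untreated cells. The count of higher CXC genes was 1 without heme-albumin replicate 2.

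Ccl5, which recruits T cells and monocytes, had 0.859, 0.507 and 0.743 CPM with heme-albumin, against 23.4, 28.1 and 1452 CPM with IFNγ (-9.45 ± 1.65, adjusted p = 0.000457, or -5.17 without IFNγ replicate 3), with IFNγ replicate 3 far above the other two. Ccl12, another CC chemokine, differed by -5.46 ± 0.90. Cx3cr1, the fractalkine receptor of resident macrophages, had 32.7, 32.7 and 36.8 CPM with heme-albumin, against 5.1, 1.69 and 3.17 CPM with IFNγ (3.38 ± 0.42) and 25.5, 39.5 and 20.2 CPM in untreated cells. Against untreated cells Cx3cr1 fell with IFNγ (-3.12 ± 0.41), while its difference with heme-albumin was 0.25 ± 0.36 (adjusted p = 0.647).

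Of the cytokines and their inhibitors 3 were higher and 10 lower with heme-albumin of 17 tested. Il18bp, which neutralizes IL-18, had 6.58, 8.53 and 9.97 CPM with heme-albumin, against 329, 527 and 799.6 CPM with IFNγ (-6.05 ± 0.33). Il27, a subunit of the cytokine IL-27, differed by -3.12 ± 0.29, the death ligand Tnfsf10 (TRAIL) by -6.14 ± 0.40, and Il1b by -5.59 ± 0.90 (-4.18 without IFNγ replicate 3). Tnf was lower by less, with 100.3, 118 and 126 CPM with heme-albumin, against 189.7, 212 and 171 CPM with IFNγ (-0.73 ± 0.12, adjusted p = 0.000244). The costimulatory ligands had 3 higher and 7 lower members of 14 tested, beside 20.4% and 21.7% of all genes tested. The checkpoint ligand Cd274 (PD-L1) had 23.5, 65.2 and 32.3 CPM with heme-albumin, against 917, 1033 and 2246 CPM with IFNγ (-5.12 ± 0.51, adjusted p = 2.80e-06), Cd86 differed by -4.05 ± 0.22 and Cd40 by -1.94 ± 0.34, whereas Tnfsf4 (OX40 ligand) and Tnfsf9 (4-1BB ligand) were higher with heme-albumin, by 2.99 ± 0.64 and 1.12 ± 0.25.

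Of the genes of arginine, nitric oxide and itaconate 0 were higher and 6 lower with heme-albumin of 11 tested, with 1 higher without IFNγ replicate 3. Nos2, the inducible nitric oxide synthase, had 0, 0 and 0.212 CPM with heme-albumin, against 143, 78.4 and 549.8 CPM with IFNγ. With heme-albumin Nos2 had 2 counts in all, and IFNγ over heme-albumin had a ratio of 3969 (95% counting interval 1098 to 32774), or 1869 without IFNγ replicate 3. Arg1, arginase 1, often used as a marker of IL-4 treated cells, had 0.286, 0.338 and 0.106 CPM with heme-albumin, against 140.0, 83.3 and 35.7 CPM with IFNγ (-8.36 ± 0.65, adjusted p = 2.93e-07), and 2.3, 0.787 and 0.752 CPM in untreated cells. Acod1, which makes itaconate, had 81.3, 296 and 137 CPM with heme-albumin, against 1772, 1033 and 1010.2 CPM with IFNγ (-2.89 ± 0.42, adjusted p = 9.74e-05, or -3.55 without heme-albumin replicate 2), and the arginine transporter Slc7a2 differed by -4.08 ± 0.40. Against the untreated cells, edgeR called 0 of the 11 with heme-albumin (2 at an unadjusted p under 0.05), while with IFNγ 6 rose and 1 fell.

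Receptors that sense microbes were mostly lower. Of the Toll-like receptors and their adaptors 1 was higher and 11 lower with heme-albumin of 17 tested (median -0.74), with 2 higher without IFNγ replicate 3. Tlr9, a sensor of DNA, had 7.44, 9.72 and 7.85 CPM with heme-albumin, against 89.1, 105 and 102 CPM with IFNγ (-3.57 ± 0.26, adjusted p = 1.36e-07), Tlr3 differed by -1.84 ± 0.15 and Tlr1 by -1.84 ± 0.18, while Tlr5, the flagellin receptor, was higher by 1.69 ± 0.35. Of the Fc gamma receptors and related genes 0 were higher and 5 lower with heme-albumin of 6 tested (median -1.05). Fcgr4 had 44.7, 61.9 and 50.8 CPM with heme-albumin, against 1078, 1164 and 1043 CPM with IFNγ (-4.38 ± 0.24, adjusted p = 7.93e-09), with 37.7, 54.7 and 34.9 CPM in untreated cells, and Fcgr1, the high-affinity receptor, differed by -3.30 ± 0.26.

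Of the inflammasome and pyroptosis genes 0 were higher and 7 lower with heme-albumin of 12 tested (median -0.66), led by Casp4, which senses cytosolic lipopolysaccharide, with 14, 14.1 and 16.8 CPM with heme-albumin, against 109, 114 and 147 CPM with IFNγ (-3.05 ± 0.19, adjusted p = 3.77e-08). Casp1 differed by -1.58 ± 0.10. In the inflammasome list 1 gene was higher without IFNγ replicate 3. Of the complement genes 2 were higher and 9 lower with heme-albumin of 15 tested, with 1 higher without heme-albumin replicate 1 or 3 or IFNγ replicate 3. The count of higher genes was also 1 in the 6 libraries alone and with the dates as a block, and 4 with upper-quartile factors. Cfb, factor B of the alternative pathway, had 0.286, 0.169 and 0.212 CPM with heme-albumin, against 91.2, 116 and 1299 CPM with IFNγ (-11.06 ± 1.27, or -8.78 without IFNγ replicate 3), C4b differed by -8.46 ± 0.39 and C1ra by -2.43 ± 0.38 (-1.77 without IFNγ replicate 3). C3 had 38.7, 127 and 69.4 CPM with heme-albumin, against 465, 303 and 3189 CPM with IFNγ (-4.07 ± 0.76, adjusted p = 0.000723, or -2.29 without IFNγ replicate 3), and its call was lost in the 6 libraries alone with the dates as a block (adjusted p = 0.0512 in the 6 libraries alone with the dates as a block; range over all alternatives 4.00e-07 to 0.0512). C1qa, a chain of the C1q complex, had 183, 44.8 and 242 CPM with heme-albumin, against 610.1, 956 and 659 CPM with IFNγ (-2.24 ± 0.76, adjusted p = 0.0289). Here heme-albumin replicate 2 lay far below the other libraries of its group, and several alternatives ended the call (adjusted p = 0.0522 in the 6 libraries alone with the dates as a block, 0.0662 without heme-albumin replicate 1, 0.09 without heme-albumin replicate 2, 0.0681 without IFNγ replicate 2, 0.0815 without heme-albumin replicate 2 and IFNγ replicate 3; range over all alternatives 0.0203 to 0.09).

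Of the genes of heme breakdown and transport, Hmox1 among them, 8 were higher and 0 lower with heme-albumin of 14 tested, with a median of 0.45 and 1 lower without IFNγ replicate 3. Abcb6, a porphyrin transporter, had 117, 115 and 109 CPM with heme-albumin, against 18.2, 15.3 and 15.1 CPM with IFNγ (2.81 ± 0.11, adjusted p = 4.78e-10). Abcc1, an exporter of glutathione conjugates, differed by 1.59 ± 0.17 and Slc48a1, which moves heme out of the lysosome, by 1.25 ± 0.21. Blvra, which reduces biliverdin, showed no difference that passed the test (0.09 ± 0.12, adjusted p = 0.582). Cd163, the receptor for hemoglobin bound to haptoglobin, had 5.72, 2.45 and 6.58 CPM with heme-albumin, against 0.938, 0.534 and 0.138 CPM with IFNγ (3.14 ± 0.52, adjusted p = 0.000282). Its untreated libraries had 6.4, 4.84 and 7.09 CPM, so Cd163 had fallen with IFNγ (-3.45 ± 0.51) while its difference with heme-albumin was -0.31 ± 0.43 (adjusted p = 0.633). Of the enzymes of heme synthesis 4 were higher and 0 lower with heme-albumin of 8 tested (median 0.16), beside 20.4% and 21.7% of all genes tested. In this list 1 was lower without heme-albumin replicate 2 or IFNγ replicate 1. Fech, ferrochelatase, which puts iron into the ring, was higher by 0.69 ± 0.11, and Alas1, which makes the first step and is repressed by heme, did not pass the test (-0.59 ± 0.35, adjusted p = 0.192). Without heme-albumin replicate 2 Alas1 was lower with heme-albumin, with a fold change of -1.14 (adjusted p = 0.0133; range over all alternatives 0.0133 to 0.591).

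Of the iron genes 6 were higher and 4 lower with heme-albumin of 18 tested, beside 20.4% and 21.7% of all genes tested, with a median near that of all genes (-0.03). Slc40a1, ferroportin, the exporter of iron, had 2938, 2635 and 3768 CPM with heme-albumin, against 378, 164 and 408 CPM with IFNγ (3.30 ± 0.42, adjusted p = 2.97e-05). Tfrc, the transferrin receptor, had 23.5, 15.4 and 23.3 CPM with heme-albumin, against 102, 59.4 and 69.3 CPM with IFNγ (-1.89 ± 0.26, adjusted p = 5.62e-05), and 256, 161 and 241 CPM in untreated cells. Tfrc thus fell in both arms against untreated cells (-3.40 ± 0.27 with heme-albumin and -1.51 ± 0.25 with IFNγ). Cp, ceruloplasmin, a ferroxidase, had 0, 0.0845 and 0.212 CPM with heme-albumin, against 9.55, 2.62 and 28.8 CPM with IFNγ, a ratio of IFNγ over heme-albumin of 139 (95% counting interval 47.4 to 676), which was 65.9 without IFNγ replicate 3 and 216 without replicate 2. The mitochondrial iron importer Slc25a37 differed by -1.49 ± 0.16, while the zinc and iron transporter Slc39a14 was higher by 1.48 ± 0.14 and the ferrireductase Steap3 by 1.05 ± 0.13.

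The ferritin chains were among the 5 genes with the most counts in the 6 libraries, together with Hmox1, Lyz2 and Psap. Ftl1, the light chain, had 18707, 25751 and 19073 CPM with heme-albumin, against 5731, 8325 and 11914 CPM with IFNγ (1.29 ± 0.23, adjusted p = 0.000511). Fth1, the heavy chain, had 29638, 35473 and 28124 CPM with heme-albumin, against 10953, 11121 and 22143 CPM with IFNγ (1.08 ± 0.29, adjusted p = 0.00853), and its call was lost in the 6 libraries alone (adjusted p = 0.0508 in the 6 libraries alone, 0.0734 in the 6 libraries alone with the dates as a block; range over all alternatives 0.000184 to 0.0734). Both have near-identical copies in the genome, so their counts are uncertain. Lyz2, lysozyme, had 40584, 48572 and 49002 CPM with heme-albumin, against 7406, 6910.5 and 17212 CPM with IFNγ (2.13 ± 0.32, adjusted p = 0.000127) and 26938, 31703 and 27744 CPM in untreated cells, and had fallen with IFNγ (-1.45 ± 0.31). Psap, the precursor of the saposins of lysosomes, had 6879, 9799 and 8145 CPM with heme-albumin, against 15750.3, 18898 and 25278 CPM with IFNγ (-1.27 ± 0.19, adjusted p = 0.000151).

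Antioxidant genes were higher with heme-albumin in most cases. Of the glutathione and cystine genes 13 were higher and 1 lower with heme-albumin of 19 tested (median 1.53). Without IFNγ replicate 3 the median was 1.94 and 2 genes were lower, as they were without heme-albumin replicate 2. Gclc, the catalytic subunit of the rate-limiting enzyme of glutathione synthesis, had 182, 431 and 233 CPM with heme-albumin, against 44.1, 33.1 and 60.9 CPM with IFNγ (2.62 ± 0.38, adjusted p = 0.000104). The glutathione transferases Gsta3, Gstm1 and Gstm2 differed by 4.98 ± 0.73 (6.92 without IFNγ replicate 3), 3.24 ± 0.38 and 4.78 ± 0.40. Gpx3, a secreted glutathione peroxidase, was the only member lower with heme-albumin (-2.43 ± 0.45). Slc7a11, the cystine transporter, had 64.8, 285 and 108 CPM with heme-albumin, against 16.4, 3.03 and 77 CPM with IFNγ. It did not pass the test (2.26 ± 0.87, adjusted p = 0.0511). IFNγ replicate 3 lay far above the other IFNγ libraries, and without it the fold change was 4.01 and the adjusted p 0.00178, while the adjusted p was 0.0424 without heme-albumin replicate 1 and 0.0371 by DESeq2 (range over all alternatives 0.00178 to 0.225).

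Of the NRF2 detoxification and thioredoxin genes 17 were higher and 3 lower with heme-albumin of 24 tested (median 1.26), and against the untreated cells, 20 rose and 0 fell with heme-albumin (median 1.67), while 10 rose and 2 fell with IFNγ (median 0.45). Nqo1, which reduces quinones, had 213, 487 and 270.0 CPM with heme-albumin, against 9.85, 5.69 and 9.36 CPM with IFNγ (5.29 ± 0.41, adjusted p = 2.87e-07) and 15, 14.9 and 15.7 CPM in untreated cells. The aldehyde and prostaglandin reductase Ptgr1 differed by 3.06 ± 0.24, Akr1b8 by 3.03 ± 0.19, Aox1 by 3.04 ± 0.29, superoxide dismutase Sod1 by 1.92 ± 0.10 and thioredoxin reductase Txnrd1 by 1.36 ± 0.25. Tbxas1, thromboxane synthase, was lower, with 96.8, 127 and 129 CPM with heme-albumin, against 231, 319.7 and 217 CPM with IFNγ (-1.12 ± 0.18). It was at 112 ± 12.3 CPM in untreated cells, near the level of the heme-albumin group.

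Of the enzymes that make NADPH 7 were higher and 0 lower with heme-albumin of 8 tested (median 0.93). Me1, malic enzyme, had 99.9, 91.5 and 102 CPM with heme-albumin, against 12, 6.98 and 13.6 CPM with IFNγ (3.18 ± 0.19, adjusted p = 1.90e-08). G6pdx and Pgd of the pentose phosphate pathway differed by 0.92 ± 0.11 and 1.16 ± 0.17, Tkt by 0.78 ± 0.12 and Idh1 by 1.57 ± 0.14. Of the regulators of these genes 2 were higher and 5 lower with heme-albumin of 8 tested, or 0 higher and 3 lower in the fit of the 6 libraries alone with the dates as a block. The repressor gene Bach1 was lower with heme-albumin, with 106, 126 and 124 CPM with heme-albumin, against 173, 151 and 210.1 CPM with IFNγ (-0.59 ± 0.13, adjusted p = 0.00211), as was the small MAF gene Mafk (-0.92 ± 0.15). Against untreated cells Bach1 had risen in both arms, by 0.44 ± 0.13 with heme-albumin (adjusted p = 0.0225) and 1.03 ± 0.13 with IFNγ (adjusted p = 3.15e-05). RNA does not report the activity of these proteins.

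The antioxidant response element, searched as TGACNNNGC on both strands, was found in 17% of 230 promoters of genes higher by at least 8-fold and 15.3% of those higher by at least 2-fold. It was found in 12.7% of those lower by at least 2-fold, 14.5% of all promoters of tested genes and 12.4% of all promoters in the table. For genes that rose at least 8-fold with heme-albumin against untreated cells it was found in 31 of 139 promoters (22.3%), a share that was not tested. TGANTCAGC, another form that NRF2 and small MAF proteins bind, has more fixed letters and was added after the first matches were seen. It was found in 1.80% of promoters of genes higher by at least 2-fold, 1.87% of those lower by at least 2-fold and 1.19% of all. The letters of both forms can overlap, but a match to TGANTCAGC need not match TGACNNNGC. Of the 23 NRF2 detoxification genes with a promoter in the table, 5 held TGANTCAGC. Me1 (chr9:86695865-86696164, minus strand) and Srxn1 (chr2:152105274-152105573, plus strand), the second of which was named after its values were seen, are shown with this match in capitals, which begins 6 and 45 bases before the start.
Me1: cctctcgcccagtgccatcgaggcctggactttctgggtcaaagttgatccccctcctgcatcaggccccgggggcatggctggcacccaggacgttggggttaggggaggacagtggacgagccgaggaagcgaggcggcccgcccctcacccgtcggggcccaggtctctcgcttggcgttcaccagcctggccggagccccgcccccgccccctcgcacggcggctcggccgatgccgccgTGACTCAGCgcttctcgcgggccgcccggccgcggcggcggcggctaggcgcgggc
Srxn1: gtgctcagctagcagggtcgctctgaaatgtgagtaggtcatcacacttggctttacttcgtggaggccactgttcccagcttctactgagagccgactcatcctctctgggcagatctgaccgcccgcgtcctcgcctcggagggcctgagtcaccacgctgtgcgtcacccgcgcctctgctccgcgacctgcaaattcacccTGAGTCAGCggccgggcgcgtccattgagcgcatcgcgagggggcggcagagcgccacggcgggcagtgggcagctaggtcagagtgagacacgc
Srxn1, sulfiredoxin, which repairs peroxiredoxins, had 536, 933 and 612 CPM with heme-albumin, against 177, 121 and 375 CPM with IFNγ (1.63 ± 0.37, adjusted p = 0.00302, or 2.22 without IFNγ replicate 3). Both genes were higher in every heme-albumin library than in any IFNγ library, and both rose with heme-albumin against untreated cells, Me1 by 2.15 ± 0.18 and Srxn1 by 2.07 ± 0.38. Here too the genes were shown because they were higher and hold a match.

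**Figure D4:**
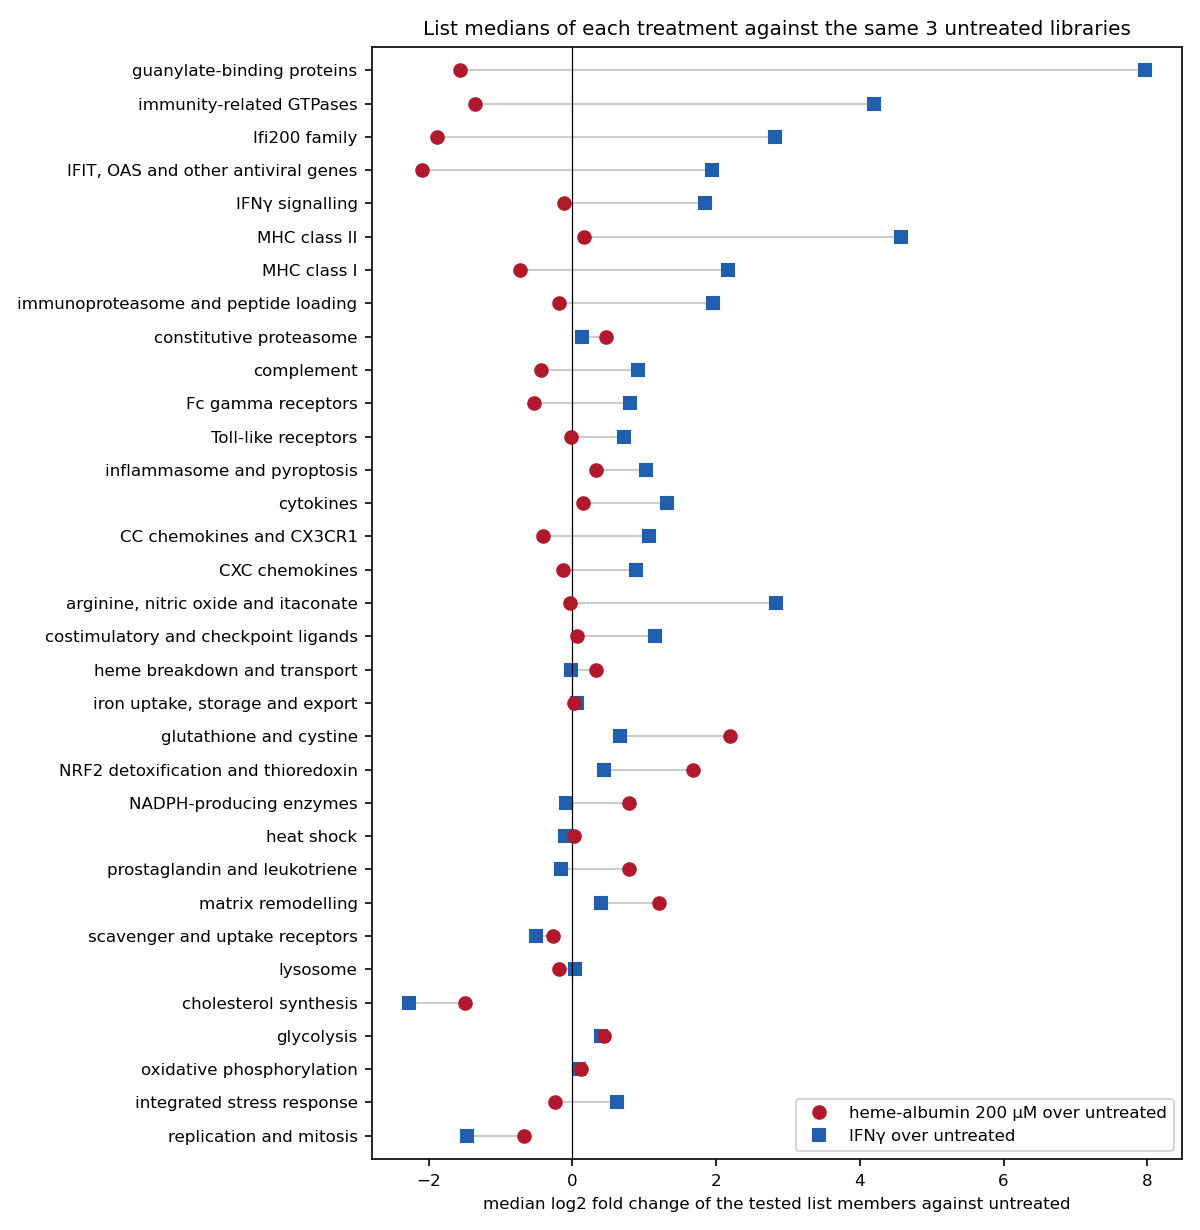
Median log2 fold change of the tested members of 33 gene lists with heme-albumin 200 µM (red circles) and with IFNγ (blue squares), each against the same 3 untreated libraries. GBPs, IRGs, Ifi200 and antiviral genes have medians below 0 with heme-albumin and above 0 with IFNγ, MHC class II genes have a median near 0 with heme-albumin, and cholesterol synthesis genes have medians below 0 in both arms.

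Metallothioneins and zinc transporters had 4 higher and 1 lower members of 8 tested, beside 20.4% and 21.7% of all genes tested. Mt1, a metal-binding metallothionein, differed by 1.17 ± 0.16, and Mt3 had 2.15, 21.4 and 3.61 CPM with heme-albumin, against 0 CPM in all 3 IFNγ libraries, at least 162-fold higher with heme-albumin, a bound of 49.3-fold without replicate 2, which held most of its counts, and 243-fold without replicate 1. Of the heat shock genes 6 were higher and 0 lower with heme-albumin of 14 tested, and the 6 higher genes had also risen with heme-albumin against untreated cells. Hsph1, a nucleotide exchange factor of HSP70, had 87.5, 112 and 85.5 CPM with heme-albumin, against 34.6, 34 and 44.7 CPM with IFNγ (1.33 ± 0.17, adjusted p = 3.83e-05), the cochaperone Dnajb4 differed by 1.69 ± 0.19 and Hspa1b by 2.32 ± 0.48. Hspa1b has a near-identical copy and is uncertain.

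Genes of lipid mediators differed in direction. Of the prostaglandin and leukotriene genes 8 were higher and 3 lower with heme-albumin of 16 tested. Alox5, 5-lipoxygenase, which starts leukotriene synthesis, had 136, 148 and 150.5 CPM with heme-albumin, against 4.1, 8.54 and 1.58 CPM with IFNγ (4.88 ± 0.53, adjusted p = 6.29e-06, or 5.64 without IFNγ replicate 2). Its partner protein Alox5ap differed by 1.55 ± 0.15 and leukotriene C4 synthase Ltc4s by 2.40 ± 0.42. Ptgs2, cyclooxygenase 2, which starts prostaglandin synthesis, ran the other way, with 13.5, 41.5 and 15.8 CPM with heme-albumin, against 372, 222 and 225 CPM with IFNγ (-3.53 ± 0.48, adjusted p = 5.32e-05, or -4.23 without heme-albumin replicate 2). Untreated cells had 1.28, 0.847 and 0.752 CPM of Ptgs2, so it had risen in both arms (4.57 ± 0.62 with heme-albumin and 8.11 ± 0.64 with IFNγ). Alox5 had 36.2, 77.8 and 49.4 CPM in untreated cells, and had risen with heme-albumin (1.41 ± 0.44, adjusted p = 0.0348) and fallen with IFNγ (-3.47 ± 0.50).

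Of the matrix remodelling genes 10 were higher and 3 lower with heme-albumin of 17 tested (median 1.31). Mmp8, a collagenase, had 719, 1243 and 923 CPM with heme-albumin, against 67.8, 29 and 38.8 CPM with IFNγ (4.41 ± 0.34, adjusted p = 2.94e-07), and Spp1, osteopontin, had 13571, 11494 and 10445 CPM with heme-albumin, against 519, 982 and 117 CPM with IFNγ (4.46 ± 0.58, adjusted p = 3.56e-05, or 5.22 without IFNγ replicate 2). Spp1 had 4456, 6997 and 4009 CPM in untreated cells, against which it fell with IFNγ (-3.26 ± 0.55) and differed by 1.20 ± 0.51 with heme-albumin (adjusted p = 0.105). Plaur, the urokinase receptor, differed by 1.31 ± 0.14, the surface protease Adam8 by 1.42 ± 0.16 and the inhibitor Timp2 by 2.01 ± 0.19. Thbs1, thrombospondin 1, had 1.86, 10.7 and 2.33 CPM with heme-albumin, against 37, 66.4 and 927 CPM with IFNγ (-6.10 ± 1.13, adjusted p = 0.000693, or -3.37 without IFNγ replicate 3 and -7.37 without heme-albumin replicate 2), with IFNγ replicate 3 highest. Without that library 5 genes of the list were lower rather than 3.

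Genes of red pulp macrophages, which recycle iron from red blood cells in the spleen, had 3 higher and 2 lower members of 9 tested, beside 20.4% and 21.7% of all genes tested. There were 5 higher without IFNγ replicate 3 and 1 lower without heme-albumin replicate 2 or IFNγ replicate 1. Treml4, a receptor for dead cells, had 346, 251 and 367 CPM with heme-albumin, against 5.92, 1.51 and 13.2 CPM with IFNγ (5.59 ± 0.64, adjusted p = 1.10e-05, or 6.49 without IFNγ replicate 3), and Cd5l, a secreted scavenger protein, differed by 3.63 ± 0.47 (4.32 without IFNγ replicate 3). Vcam1, an adhesion molecule of these cells, was lower, with 0.787, 0.338 and 0.637 CPM with heme-albumin, against 14.6, 7.92 and 31.9 CPM with IFNγ (-4.91 ± 0.65, adjusted p = 4.23e-05, or -4.22 without IFNγ replicate 3). Spic, the transcription factor that marks them, had 16.6, 16 and 20.5 CPM with heme-albumin, against 1.58, 0.311 and 14.7 CPM with IFNγ. It did not pass the test (1.72 ± 0.78, adjusted p = 0.0941), and IFNγ replicate 3 lay close to the heme-albumin group; without that library the fold change was 4.30 and the adjusted p 7.51e-06, and with the dates as a block they were 2.28 and 0.0213 (range over all alternatives 7.51e-06 to 0.279).

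Of the core macrophage genes 4 were higher and 4 lower with heme-albumin of 18 tested (median 0.00), shares near the 20.4% and 21.7% of all genes tested. Csf1r, the M-CSF receptor that macrophages depend on, had 1841, 1952 and 1877 CPM with heme-albumin, against 1400.3, 1426 and 3169.7 CPM with IFNγ (-0.08 ± 0.25, adjusted p = 0.821), with groups that overlapped. Without IFNγ replicate 3, the highest of the 6, it was higher with heme-albumin by 0.42 (adjusted p = 0.0245; range over all alternatives 0.0245 to 0.956). Cebpa, a myeloid transcription factor, had 119.7, 120.4 and 135 CPM with heme-albumin, against 15.9, 22 and 47.7 CPM with IFNγ (2.14 ± 0.29, adjusted p = 5.16e-05) and Aif1, an actin-bundling protein, had 49.4, 30.2 and 62.1 CPM with heme-albumin, against 291, 281 and 369 CPM with IFNγ (-2.73 ± 0.43, adjusted p = 0.000187). Among scavenger and uptake receptors, 4 were higher and 5 lower with heme-albumin of 17 tested, beside the same 20.4% and 21.7%. Axl and Mertk, receptors for dying cells, differed by -3.62 ± 0.21 and -2.78 ± 0.48 (-2.10 without IFNγ replicate 3), while their ligand Gas6 ran the other way, with 387, 213 and 503 CPM with heme-albumin, against 85.2, 142 and 58.2 CPM with IFNγ (1.95 ± 0.41, adjusted p = 0.00183) and 811, 1001 and 1211 CPM in untreated cells. Gas6 had fallen in both arms (-1.45 ± 0.40 with heme-albumin and -3.40 ± 0.44 with IFNγ). Marco, a receptor for particles and bacteria, had 2455, 1267 and 1958 CPM with heme-albumin, against 49.3, 1.74 and 398 CPM with IFNγ (3.66 ± 1.26, adjusted p = 0.0311, or 6.23 without IFNγ replicate 3), a call lost under several alternatives (adjusted p = 0.112 in the 6 libraries alone, 0.0636 in the 6 libraries alone with the dates as a block, 0.0671 without heme-albumin replicate 1, 0.056 without heme-albumin replicate 3, 0.0851 without IFNγ replicate 1; range over all alternatives 0.00178 to 0.112).

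Of the lysosome genes 3 were higher and 10 lower with heme-albumin of 28 tested, beside 20.4% and 21.7% of all genes tested. The cathepsins differed in direction. Ctsc had 313, 194 and 312 CPM with heme-albumin, against 4005, 3559.8 and 3577 CPM with IFNγ (-3.77 ± 0.21, adjusted p = 1.07e-08), and Ctsh differed by -2.76 ± 0.20. Ctsl had 3291, 3168 and 3188 CPM with heme-albumin, against 1174, 1205 and 1064 CPM with IFNγ (1.49 ± 0.15, adjusted p = 2.63e-06). The cholesterol carrier Npc2 was lower (-1.68 ± 0.18), while Gusb, a glucuronidase, was higher (0.64 ± 0.09). Without IFNγ replicate 3, 5 lysosome genes were higher rather than 3.

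Of the glycolysis genes 6 were higher and 5 lower with heme-albumin of 19 tested (median 0.08), beside 20.4% and 21.7% of all genes tested. Hk3, a hexokinase, had 385, 386 and 389 CPM with heme-albumin, against 1436, 2007 and 1588 CPM with IFNγ (-2.12 ± 0.12, adjusted p = 9.58e-09), and Pfkfb3, which makes the activator of phosphofructokinase, had 32.8, 44.4 and 35.7 CPM with heme-albumin, against 248, 257 and 374 CPM with IFNγ (-2.96 ± 0.20, adjusted p = 8.22e-08). Pfkp, a phosphofructokinase, differed by -1.18 ± 0.23. The enolase gene Eno1 and the pyruvate kinase gene Pkm were higher, by 0.78 ± 0.19 and 0.71 ± 0.14. Of 30 subunits of oxidative phosphorylation tested, 2 were higher and 5 lower, with a median of 0.01, shares below the 20.4% and 21.7% of all genes; with upper-quartile factors 11 were higher. Ndufa4, a subunit of complex IV, had 164, 165 and 181 CPM with heme-albumin, against 74.9, 67.7 and 68.3 CPM with IFNγ (1.28 ± 0.09, adjusted p = 7.49e-08).

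Cholesterol synthesis genes were lower in both arms than in untreated cells. In this list against the untreated cells, 0 rose and 18 fell with heme-albumin (median -1.50), while 0 rose and 22 fell with IFNγ (median -2.27), and directly 7 were higher and 0 lower with heme-albumin of 22 tested (median 0.52). Sqle, squalene epoxidase, had 119, 56.7 and 79.2 CPM with heme-albumin, against 28.3, 14.9 and 6.95 CPM with IFNγ (2.34 ± 0.38, adjusted p = 0.000273, or 2.94 without IFNγ replicate 1), and 189, 162 and 177 CPM in untreated cells. Fdft1, squalene synthase, differed by 1.48 ± 0.32. The count of higher genes turned on single libraries and on the fit. It was 2 without heme-albumin replicate 1, 13 without heme-albumin replicate 2 and 14 without IFNγ replicate 1. With all libraries kept it was 12 with upper-quartile factors and 11 with the dates as a block, and it was 3 in the 6 libraries alone. Of the targets of the oxysterol receptor LXR 2 were higher and 4 lower with heme-albumin of 14 tested, beside 20.4% and 21.7% of all genes. The cholesterol exporters Abca1 (-1.13 ± 0.28) and Abcg1 (-1.37 ± 0.31) were among the lower. Of the PPARγ and lipid storage genes 5 were higher and 0 lower with heme-albumin of 15 tested, with 3 higher without heme-albumin replicate 2 or 3 and 2 lower without IFNγ replicate 1. In the 6 libraries alone, with or without the dates as a block, 2 were higher. Plin2, a coat protein of lipid droplets, was higher by 1.01 ± 0.20, and Angptl4, a secreted inhibitor of lipoprotein lipase, had 5.87, 9.13 and 5.73 CPM with heme-albumin, against 0.41, 0.934 and 0.413 CPM with IFNγ (3.49 ± 0.33, adjusted p = 1.90e-06).

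Of the integrated stress response genes 0 were higher and 6 lower with heme-albumin of 22 tested, beside 20.4% and 21.7% of all genes tested. Among the lower were Trib3 (-2.48 ± 0.62, or -3.69 without heme-albumin replicate 2), Sesn2 (-1.21 ± 0.18) and the alanyl-tRNA synthetase Aars (-0.90 ± 0.14). Without IFNγ replicate 3, 12 were lower and 1 was higher. By DESeq2, with upper-quartile factors, with no filter and without heme-albumin replicate 1, 1 was higher too. Of the p53 targets 1 was higher and 7 lower with heme-albumin of 15 tested, with Ccng1 (-0.89 ± 0.13) and Trp53inp1 (-1.11 ± 0.22) among the lower; the higher one, Sesn1, a sestrin (1.04 ± 0.36), lost its call under several alternatives (adjusted p = 0.0988 in the 6 libraries alone with the dates as a block, 0.0965 without heme-albumin replicate 1, 0.126 without heme-albumin replicate 3, 0.0561 without IFNγ replicate 1, 0.0524 without IFNγ replicate 2, 0.0761 without IFNγ replicate 3; range over all alternatives 0.00672 to 0.126). Of the genes of the unfolded protein response in the endoplasmic reticulum 4 were higher and 1 lower with heme-albumin of 15 tested (median 0.35). The shares over all genes tested were 20.4% and 21.7%. The sensor Ern1 (IRE1) was lower (-0.98 ± 0.13) and its splicing target Xbp1 higher (0.65 ± 0.18), a call lost in the 6 libraries alone (adjusted p = 0.0885 in the 6 libraries alone, 0.0877 in the 6 libraries alone with the dates as a block; range over all alternatives 0.00263 to 0.0885). The count of higher genes of this response was 7 without IFNγ replicate 1, 2 without IFNγ replicate 2 or 3 and 1 without heme-albumin replicate 1 or 3. In the 6 libraries alone it was 0, with or without the dates as a block.

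Of the genes that respond to IL-4, the cytokine of the alternative state of macrophages, 5 were higher and 6 lower with heme-albumin of 23 tested (median 0.00), shares near the 20.4% and 21.7% of all genes tested. Mgl2, a lectin for galactose sugars, had 8.16, 15.6 and 14.2 CPM with heme-albumin, against 0.293, 0.356 and 2.41 CPM with IFNγ (3.75 ± 0.51, adjusted p = 5.22e-05, or 5.22 without IFNγ replicate 3) and 10.0, 14.2 and 9.89 CPM in untreated cells. Against those it fell with IFNγ (-3.61 ± 0.50), and its difference with heme-albumin was 0.14 ± 0.40 (adjusted p = 0.831). Cdh1, E-cadherin, had 2.36, 3.38 and 2.12 CPM with heme-albumin, against 0.352, 0.133 and 0.138 CPM with IFNγ (3.63 ± 0.33, adjusted p = 1.20e-06) and 0.128, 0.242 and 0.107 CPM in untreated cells, and rose with heme-albumin (3.90 ± 0.36). Il4ra, a chain of the IL-4 receptor, was lower (-1.31 ± 0.15). Of the osteoclast and fusion genes 3 were higher and 1 lower with heme-albumin of 8 tested, beside the same 20.4% and 21.7%. Itgb3, an integrin of osteoclasts and platelets, had 7.01, 11.8 and 7.75 CPM with heme-albumin, against 0.352, 0.267 and 0.551 CPM with IFNγ (4.54 ± 0.38, adjusted p = 6.94e-07) and 6.14, 8.23 and 10.6 CPM in untreated cells, and Ocstamp, a membrane protein needed for cell fusion, ran the other way, with 0.716, 0.93 and 0.955 CPM with heme-albumin, against 199.5, 235 and 22.9 CPM with IFNγ (-7.47 ± 0.89, adjusted p = 1.73e-05).

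Replication and mitosis genes were tested with wide spread in the IFNγ group. Of these 4 were higher and 0 lower with heme-albumin of 26 tested, a smaller share than the 20.4% of all genes, with a median of 0.72. Mcm5, a subunit of the replicative helicase, had 175, 119 and 156 CPM with heme-albumin, against 104, 57.3 and 15.2 CPM with IFNγ (1.35 ± 0.48, adjusted p = 0.0369, or 2.04 without IFNγ replicate 1) and 186, 184 and 183 CPM in untreated cells. Several alternatives ended its call (adjusted p = 0.139 in the 6 libraries alone, 0.0899 in the 6 libraries alone with the dates as a block, 0.0994 without heme-albumin replicate 1, 0.0775 without heme-albumin replicate 3, 0.0841 without IFNγ replicate 2; range over all alternatives 0.00397 to 0.139). Without IFNγ replicate 1, the library with the highest Mcm5 of its group, 22 of the list were higher. The count was 0 without heme-albumin replicate 1, 2 without heme-albumin replicate 3 and 2 without IFNγ replicate 2 or 3. In the 6 libraries alone it was 0, or 1 with the dates as a block. Against the untreated cells, edgeR called 0 of the 26 with heme-albumin (1 at an unadjusted p under 0.05) and 19 with IFNγ, all of them fallen.

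Without IFNγ replicate 3, 2060 of the 2421 higher and 2205 of the 2577 lower genes kept their calls, and without heme-albumin replicate 2 as well, 1910 and 2008 did.

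**Figure D5:**
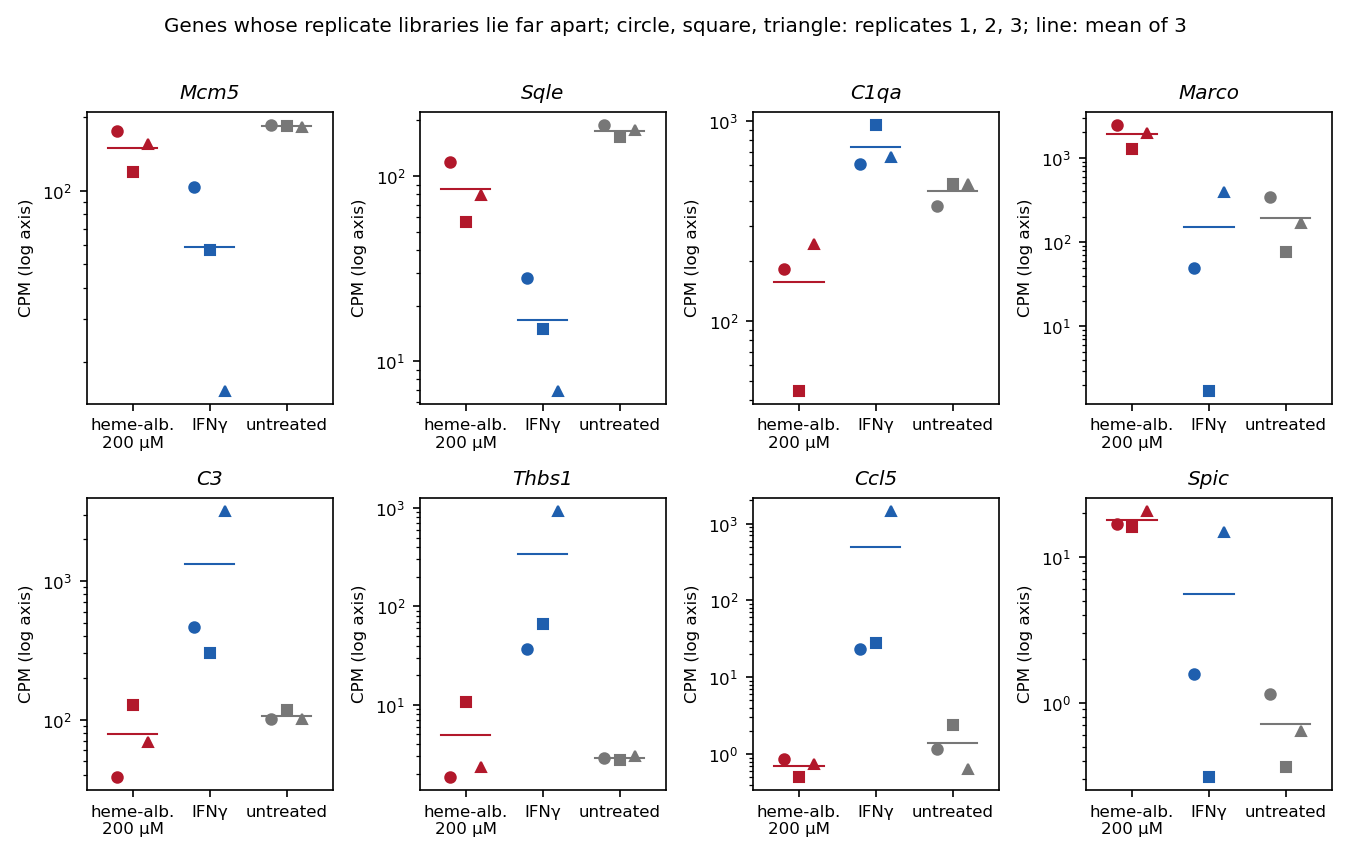
Level of 8 genes in each library in CPM on log axes, for heme-albumin 200 µM (red), IFNγ (blue) and untreated cells (grey); points are replicates 1 to 3 and lines are means of 3. IFNγ replicate 3 (triangle) is the lowest of its group for Mcm5 and Sqle and the highest for Marco, C3, Thbs1, Ccl5 and Spic, and heme-albumin replicate 2 (square) is the lowest of its group for C1qa.

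Markers of other cells were followed as summed CPM over each list. Dendritic cell markers summed to 0.254 to 0.849 CPM with heme-albumin and 27.3 to 60.5 CPM with IFNγ, nearly all of it Clec9a, with 0 CPM in all 3 heme-albumin libraries, against 40.4, 50.6 and 26 CPM with IFNγ. Neutrophil markers summed to 41.5 to 63.1 CPM with heme-albumin and 103 to 329 CPM with IFNγ, led by Csf3r (-2.50 ± 0.43, or -1.71 without IFNγ replicate 3), a receptor that macrophages also express. Of the 6 neutrophil markers tested, 0 were higher and 1 was lower, Csf3r. Their median was -0.09, with fold changes up to 3.52, and 1 was higher without heme-albumin replicate 3 or with the dates as a block. Stromal and endothelial markers summed to 207 to 277 CPM with heme-albumin and 15.1 to 28 CPM with IFNγ, and Esam made most of the first. Of the 5 tested, 3 were higher, Esam, Acta2 (2.89 ± 0.31) and Cdh5 (1.46 ± 0.38), and Pecam1 was lower with heme-albumin (-3.51 ± 0.51); the median was 1.46. Cdh5 lost its call under some alternatives (adjusted p = 0.0917 in the 6 libraries alone with the dates as a block, 0.0643 without heme-albumin replicate 2 and IFNγ replicate 3; range over all alternatives 0.00245 to 0.0917). B cell markers summed to 28.6 to 76.4 CPM with heme-albumin and 3.86 to 47.8 CPM with IFNγ, with the defining Ms4a1 and Pax5 at 0 in all 6 libraries.

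T and NK cell markers summed to 58.8 to 156 CPM with heme-albumin and 66.9 to 209 CPM with IFNγ, almost all Il7r, a cytokine receptor chain named here for that reason. Of the 3 T and NK cell markers tested, 1 was higher, Cd2, an adhesion molecule of lymphocytes, with 0.429, 0.592 and 0.106 CPM with heme-albumin, against 0 CPM in all 3 IFNγ libraries, at least 7.16-fold on 14 counts against 0 (floor of 3 counts over the group); its counts were too low for the fits of the 6 libraries alone. Il7r did not pass the test (-0.37 ± 0.53, adjusted p = 0.607), and Cd3d, Cd3e, Cd8a, Gzmb and Ncr1 were at 0. Erythroid markers summed to at most 1.00 CPM with heme-albumin and 0.356 CPM with IFNγ, with Alas2, Slc4a1, Hba-a1 and Gata1 at 0. Mast cell and basophil markers reached 0 CPM with heme-albumin and 0.0445 CPM with IFNγ, and megakaryocyte and platelet markers 16.2 to 31.2 CPM with heme-albumin and 20.3 to 29 CPM with IFNγ. The part of other cells in the differences was not tested beyond these levels.

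The difference from IFNγ at the second dose was followed through a test of 200 µM against 400 µM. By edgeR 0 of 11883 genes differed between the doses (1796 at an unadjusted p under 0.05, smallest adjusted p = 0.292), and by DESeq2, which gave 2538 of the genes no adjusted p in this test, 13 did. Hmox1 had 22416, 25568 and 22517 CPM at 400 µM, a range that overlapped that at 200 µM. Cd74 had 79.5, 51 and 69.4 CPM at 400 µM and Esam 238, 206 and 230.0 CPM, both on the same side of the IFNγ libraries as at 200 µM. A p that misses the threshold does not show that the doses act alike.

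Exons of other annotated genes overlap those of Aars, Abcb6, Adam8, Alas1, Alox5ap, Batf2, Cd274, Cd74, Cebpa, Cfb, Ciita, Clec9a, Cp, Csf1r, Ctsl, Cx3cr1, Cxcl10, Cxcl16, Dhx58, F13a1, Fdft1, Fgfr1, Fosl1, Ftl1, G6pdx, Gas6, Gbp10, Gbp2, Gbp4, Gbp7, Gbp8, H2-DMa, H2-Q4, Hk3, Igtp, Il18bp, Il1b, Il27, Il4ra, Irf1, Irgm2, Ltc4s, Mafk, Me1, Nlrc5, Pfkp, Pkm, Psmb5, Psmb7, Psmb8, Psmb9, Psmd1, Psme1, Ptprn, Serpinb9b, Slc25a37, Slc48a1, Slc7a2, Spp1, Tap1, Tbxas1, Tgtp1, Thbs1, Tkt, Tlr3, Tnfsf9, Uchl1 and Vcam1, so that their reads cannot be told apart with certainty from those of their neighbours. Members of the GBP, Ifi200, MHC class I, serpin and glutathione transferase families, and Lyz2, have close copies in the genome, between which reads may be split.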

How the data were processed

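RNA of 15 libraries (5 groups of 3) was prepared with a stranded TruSeq kit, per the labels' protocols. The authors deposited 1 table of raw counts per gene for all libraries, with no normalization. Reads were aligned with STAR 2.7.0e to GRCm38.p5, sorted with SAMtools 1.9 and counted with featureCounts, per the submitters' processing notes. Neither the annotation nor the strand setting is given in the sources used here. Of 25700 gene IDs, 25664 matched GENCODE M21, which gave symbols and coordinates. Each column was mapped to its sample by title.

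Counts were tested with edgeR 4.0.16 (limma 3.58.1, R 4.3.3): filterByExpr, TMM factors (0.886 to 1.12), 1 mean per group over all 15 libraries, the quasi-likelihood test and Benjamini-Hochberg adjustment over 11883 genes. CPM use the TMM-scaled totals. Totals of 9819362 to 22494832 counts over the 6 libraries set the precision, and intervals and floors cover counting error only. The members and lists were chosen with earlier results of these data known. Genes were named by rule: the 12 largest rises and 12 largest falls with at least 10 CPM in the higher group and no overlap between groups, the 5 highest in CPM, the 5 smallest p, the 3 markers, and from each list its opening 3 members and up to 5 of smallest p; others are said to be outside it. Column headers carry 1 date per replicate number, which the headers do not explain further. Deviations of same-date libraries from their group means correlated with a median r of -0.0191 between heme-albumin and IFNγ (-0.0921 to 0.32, 1 of 3 over 0.1) and of 0.144 over all groups (19 of 30 over 0.1), against -0.0688 for other dates.

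Alternatives were DESeq2 1.42.0 (5 adjusted p-values against IFNγ were NA in it), edgeR with upper-quartile factors or with size factors from DESeq2, no filter, at least 5 CPM in 3 libraries, the 6 libraries alone, the dates as a replicate block with all or these 6 libraries, and each of the 6 libraries left out. Leaving out heme-albumin replicate 2 with IFNγ replicate 3 was chosen after seeing the data, as was the motif TGANTCAGC. Tested on simulated data of 11883 genes, with 50 genes altered at each size, the procedure found 12 at 1.5-fold, 40 at 2-fold, 46 at 4-fold and all 50 at 8-fold. False calls made up 11.4% (19 of 167). Far fewer genes were altered there than were called in the real data. The adjusted p depends on how many genes differ, so these shares need not hold for the real comparison. Promoter sequences are from RefSeq's table on GRCm38.p6. Some items are not reported here.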

Additional observations from a re-analysis of the deposited data

How the results depend on the processing

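No gene called in the main analysis was called in the opposite direction under any alternative run. The 2421 higher and 2577 lower genes were 1573 and 1911 in the fit of the 6 libraries alone, and 1318 and 1586 when that fit held the dates as a replicate block. With the replicate block over all 15 libraries they were 2620 and 2715, and of the named genes Spic alone changed its side of the threshold. Leaving out 1 library at a time gave 2041 to 2678 higher and 2122 to 2620 lower genes, and 945 to 1201 higher and 1003 to 1113 lower by at least 2-fold. DESeq2 gave 2522 and 2718, upper-quartile factors 3072 and 2083, no filter 2353 and 2474, the filter of 5 CPM 2166 and 2335, and leaving out heme-albumin replicate 2 and IFNγ replicate 3 together 2104 and 2194. Over the named genes and alternatives, 3117 results stayed on their side of the threshold, 34 lost a call, 11 gained one and 9 changed sign. The sign changes were in genes with no call in the main analysis. Csf1r became 0.028 with upper-quartile factors, 0.026 with the replicate block in the 6 libraries alone and 0.40 without heme-albumin replicate 2 and IFNγ replicate 3, and ran from -0.28 to 0.42 with 1 library left out. Ifngr1 became 0.083 without those 2 libraries, and ran from -0.28 to -0.027 with 1 left out. With 1 library left out Il7r ran from -0.96 to 0.29 and Psmb6 from -0.053 to 0.15. The causes of these changes were not tested. With 3 libraries per group, most 1.5-fold changes were missed in the simulated data, where far fewer genes were altered than were called in the real data.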
